A study of Mus musculus with 4 samples.

Results

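The genes described here are the members of the VLA4 integrin system and its ligands. VLA4 is the adhesion receptor made of the alpha4 chain (Itga4) and the beta1 chain (Itgb1), and VCAM1 (Vcam1) is its endothelial ligand. The set also holds the chains that can take the place of either partner, which are the beta7 chain (Itgb7) and the alpha9 chain (Itga9), and the alternative ligands fibronectin (Fn1) and osteopontin (Spp1). The genes were chosen because 2 of the proteins were the targets of the antibodies given in the study and the others can bind them or replace them. They are 7 of 32285 genes in the feature table, and each had UMIs (unique molecular identifiers, 1 per captured transcript), from 780 for Itgb7 to 29822 for Itgb1 in all kept cells.

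The data were single-cell RNA sequencing libraries of mouse cortex, made with droplet-based 3' chemistry. The animals were male C57BL/6N mice of 10 months of age, and the tissue was sensory cortex, the infarct core with about 2 mm of the cortex around it. Cells were stained for CD31, an endothelial surface protein, and CD45, a leukocyte surface protein, and dead cells were excluded, while the collected fractions are not stated in the labels. There were 4 groups of 1 library, each a pool of 4 to 5 mice. The first had sham surgery and an isotype control antibody, the second had stroke by distal middle cerebral artery occlusion and isotype antibody, and the other two had stroke under anti-VCAM1 or anti-VLA4 antibody. Every group, sham included, received an antibody for 10 weeks. The libraries had no replicates, so there was no test between groups, and the 95% intervals below describe counting error alone. Both blockade comparisons use the same stroke isotype library as their control.

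VLA4 on leukocytes binds VCAM1 on activated endothelium and slows the cells on the vessel wall before they enter the tissue. The alpha4 chain can also pair with beta7, whose ligand in the gut is MAdCAM1 and which also binds VCAM1 and fibronectin. The alpha9 chain pairs with beta1, and this integrin binds VCAM1, osteopontin and tenascin C. Fibronectin is a protein of the vessel basement membrane and of provisional matrix after injury, and osteopontin is secreted by activated myeloid cells. Both are bound by alpha4 integrins and by integrins of the alphav family.

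The kept cells numbered 1514 in the sham isotype, 2832 in the stroke isotype, 4657 in the anti-VCAM1 and 6209 in the anti-VLA4 library, with median depths of 4515 to 5456.5 UMIs per cell. Clusters were named from marker genes into 10 classes, and the 7 members were left out of clustering. Endothelial-like cells were 36.3%, 23.2%, 53.8% and 52.3% of the kept cells in that order of libraries, and border macrophage-like cells 7.73%, 7.10%, 1.35% and 1.48%, so library totals of a gene are weighed by different cells. The sham and stroke isotype libraries shared 59 cell barcodes, while other pairs of libraries shared 1 to 8. Of the 53 shared barcodes kept in both, 44 had the same class in both libraries, with medians of 17753 UMIs in sham and 606 in stroke. They held 15 Vcam1, 7 Itga4, 19 Itgb1, 2 Itgb7, 12 Itga9, 0 Fn1 and 1 Spp1 UMIs of the stroke isotype library. In sham they held more: 79 of 542 Vcam1, 116 of 587 Itga4, 346 of 3209 Itgb1 and 30 of 132 Itgb7 UMIs. They also held 165 of 1732 Itga9, 82 of 1782 Fn1 and 2 of 33 Spp1 UMIs there. Values without these barcodes are given where they differ.

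Promoter sequence is shown for a ligand and a receptor chain, Spp1 and Itga4, because the ligand and receptor results below turn on the few cells with Spp1 and on the T cell-like cells with Itga4. The 250 bases before the RefSeq start are on GRCm38.p6, both on the plus strand, Spp1 at chr5:104434861-104435110 and Itga4 at chr2:79255176-79255425. Capitals mark matches to motifs searched on both strands: AP-1 (TGANTCA), PU.1 (GAGGAA) and RUNX (TGTGGT, whose other strand reads ACCACA).
Spp1: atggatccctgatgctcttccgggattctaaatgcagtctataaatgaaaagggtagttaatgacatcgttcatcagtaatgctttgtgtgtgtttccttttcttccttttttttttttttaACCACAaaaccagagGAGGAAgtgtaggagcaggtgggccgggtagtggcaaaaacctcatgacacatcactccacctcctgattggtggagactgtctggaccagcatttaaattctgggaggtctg
Itga4: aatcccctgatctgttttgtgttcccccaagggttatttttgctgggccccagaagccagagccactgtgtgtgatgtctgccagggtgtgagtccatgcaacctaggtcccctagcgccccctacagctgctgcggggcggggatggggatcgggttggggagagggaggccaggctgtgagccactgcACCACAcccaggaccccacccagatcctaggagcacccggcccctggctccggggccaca
The Spp1 window holds a RUNX match that begins 128 bases before the start and a PU.1 match that begins 113 bases before it. The Itga4 window holds a RUNX match that begins 60 bases before the start. Of 32851 RefSeq promoters of this length, 14.0% hold the RUNX letters, 23.3% the PU.1 letters and 6.75% the AP-1 letters, which neither window holds. RefSeq lists a second Spp1 start, and its window (chr5:104435942-104436191) holds none of these letters and is not printed. The matches are a description of the letters, and binding was not measured.

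The genes lie on 7 chromosomes in GENCODE M21 (GRCm38). Vcam1 is on chromosome 3 (116109949 to 116129688, minus strand), Fn1 on chromosome 1 (71585520 to 71653200, minus), Spp1 on chromosome 5 (104435118 to 104441050, plus) and Itga4 on chromosome 2 (79255426 to 79333123, plus). Itgb7 is on chromosome 15 (102215995 to 102231944, minus), Itgb1 on chromosome 8 (128685654 to 128733200, plus) and Itga9 on chromosome 9 (118606690 to 118901003, plus). Vcam1, Itga4, Itga9 and Fn1 each overlap a listed gene on the other strand (Gm43109, Cerkl, Gm2415 and Apol7d), and the strand setting of the counting is not given in the sources used here. Levels are therefore set beside each other only within a gene. The plot of levels by class shows where each member was found.

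**Figure D1:**
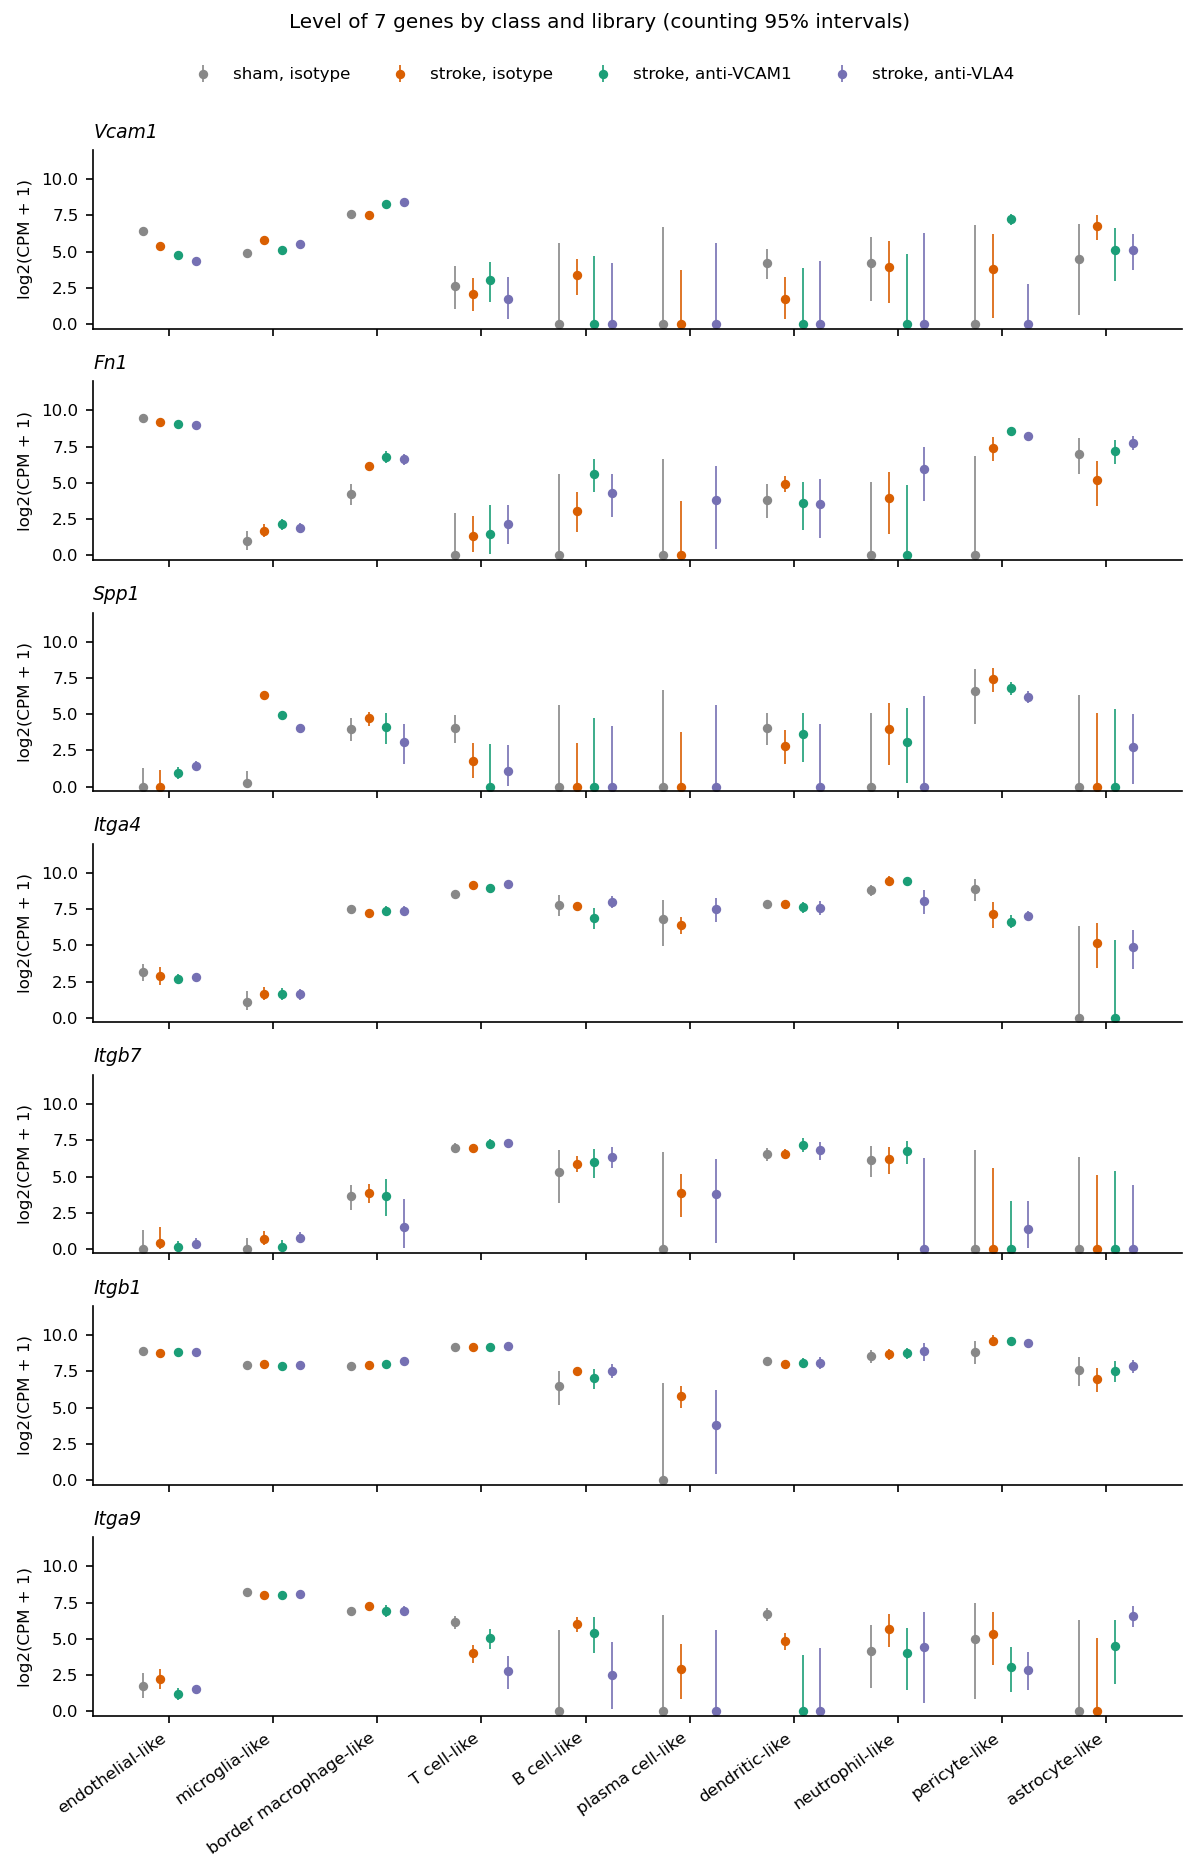
Level of each member as log2(CPM + 1) in the 10 classes, where CPM is UMIs per 1000000 UMIs of the class in the library; points are libraries (1 per group) and lines are exact Poisson 95% intervals. Fn1 was highest in endothelial-like cells in sham (694 CPM), Itga9 in microglia-like cells (298 CPM) and Itgb7 in T cell-like cells (123 CPM), while Itgb1 was found in every class.

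Vcam1, the ligand targeted by 1 of the antibodies, was found in 3 of the 4 large classes and in a minority of the cells of each. In endothelial-like cells it was at 84.5 CPM (73.6 to 96.7) in sham, 41.7 (34.7 to 49.8) in stroke under isotype, 26.1 (23.3 to 29.1) under anti-VCAM1 and 19.2 (17.2 to 21.4) under anti-VLA4. The sham library was the highest, and no interval overlapped another. The log2 ratio was -1.001 (-1.35 to -0.69) for stroke over sham, -0.66 (-0.98 to -0.36) under anti-VCAM1 over isotype and -1.08 (-1.42 to -0.81) under anti-VLA4 over isotype. Other markers differed in this class as well: all 5 erythroid markers had UMIs in each library, with sums of 273, 12759, 4209 and 4616 CPM, and their part in the endothelial values here was not tested. Without cluster 13, which had pericyte markers, the ratios were -0.98, -0.60 and -1.02. The levels rest on 213, 122, 320 and 331 UMIs in 32, 32, 70 and 79 cells, and the 10 highest cells held 78.9%, 76.2%, 56.6% and 50.2% of them. Leaving out the top cell per library brought the ratios to -1.42, -0.25 (-0.63 to 0.13) and -0.66, so the difference under anti-VCAM1 is then within counting error.

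The share of endothelial-like cells with a Vcam1 UMI, after thinning every cell to 1000 UMIs, was 4.31%, 1.77%, 1.32% and 0.981% in the same order. Without thinning it was 5.82%, 4.87%, 2.80% and 2.43%, at median depths of 3888.5, 3805, 4096 and 4449 UMIs. In T cell-like cells, taken as a class that lacks Vcam1, the thinned share was 0.162% (1 of 618 cells) at a median of 4530 UMIs. Thinning left out 16, 37, 80 and 89 endothelial-like cells and 17 T cell-like cells. The endothelial share lay above that background value in every library, but the background rests on 1 cell and the intervals were not compared.

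Within the endothelial-like class, Vcam1 was concentrated in cluster 14, which had the highest sum of venous genes among endothelial-like clusters (1895 CPM over 8 genes). This cluster held 237 of 6960 endothelial-like cells and 437 of 986 Vcam1 UMIs, or 44.3%. Its level was 665 CPM (566 to 777) in sham, 431 (343 to 534) in stroke under isotype, 267 (216 to 326) under anti-VCAM1 and 182 (148 to 221) under anti-VLA4. The order of the libraries was that of the whole class, and only the intervals of the blockade libraries overlapped. Cells with a UMI were 20 of 50, 13 of 45, 18 of 58 and 23 of 84, and 1 cell held 54.2% of the cluster's Vcam1 UMIs in the stroke isotype library. The place of that library above anti-VCAM1 in this cluster therefore rests on that cell. The cluster was 9.09%, 6.85%, 2.32% and 2.59% of endothelial-like cells, so its weight in the class was also lower in the blockade libraries. In cluster 2, which had the highest sum of arterial genes of all clusters (1924 CPM over 8 genes), Vcam1 was at 40.7, 45.7, 42.0 and 35.4 CPM, and these 4 intervals overlapped. In clusters 5 and 8 the level of a library came from 1 cell, with 90.7% of 54 UMIs under anti-VLA4 and 86.2% of 58 UMIs under anti-VCAM1, and in sham all 16 UMIs of cluster 8 were in 1 cell.

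**Figure D2:**
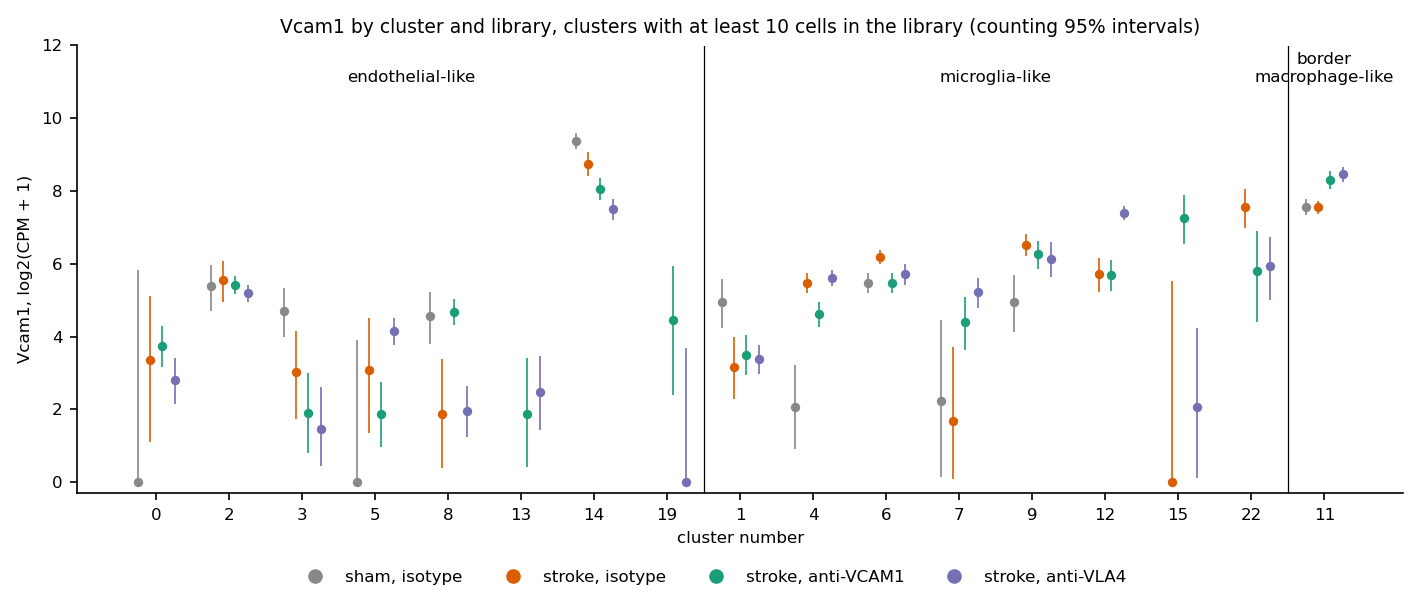
Vcam1 as log2(CPM + 1) in each cluster and library, for clusters with at least 10 cells in the library, grouped by class; lines are exact Poisson 95% intervals. Cluster 14 stands highest among endothelial-like clusters, at 665 CPM in sham and 182 under anti-VLA4, and cluster 2 lies between 35.4 and 45.7 CPM in all libraries.

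In microglia-like cells Vcam1 was at 28.9 CPM (24.4 to 33.9) in sham, 54.9 (50.3 to 59.9) in stroke under isotype, 32.9 (29.5 to 36.7) under anti-VCAM1 and 44.6 (41.1 to 48.4) under anti-VLA4. The stroke isotype library was the highest, and the sham and anti-VCAM1 intervals overlapped. The log2 ratio was 0.90 (0.66 to 1.20) for stroke, -0.72 (-0.94 to -0.54) under anti-VCAM1 and -0.29 (-0.47 to -0.13) under anti-VLA4. Cells with a Vcam1 UMI were 1.89%, 3.40%, 2.79% and 2.64% after thinning and 7.66%, 10.5%, 8.04% and 7.88% before it, with 3, 36, 25 and 37 cells too shallow to thin. The clusters did not share 1 order: in cluster 12 the anti-VLA4 library was the highest (168 CPM against 51.6 in stroke under isotype), and in cluster 9 the stroke isotype library was (91.1 CPM against 30.04 in sham).

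Border macrophage-like cells were named on 5 of 8 markers (Mrc1, Pf4, F13a1, Ms4a7 and Stab1). Cd163, Lyve1 and Cbr2 did not pass. Vcam1 in this class was at 189 CPM (161 to 220), 186 (164 to 211), 318 (267 to 376) and 350 (302 to 403). Both blockade libraries lay above both isotype libraries, with log2 ratios over stroke with isotype of 0.77 (0.46 to 1.08) and 0.91 (0.63 to 1.19), and stroke and sham did not differ beyond counting error (-0.02, -0.31 to 0.27). The blockade values come from 19 of 63 and 25 of 92 cells with a UMI, and 10 cells held 92.0% and 87.5% of the UMIs. In this class 4, 7, 8 and 8 of 8 endothelial markers had a UMI, with sums of 40.7, 30.2, 264 and 1700 CPM (Cldn5, Cdh5, Tek and Emcn at 0 in sham, Cdh5 in stroke under isotype), and the class markers summed to 4171, 4157, 3931 and 5181 CPM. Of 7 monocyte markers, 7, 7, 7 and 6 had a UMI, with sums of 687, 923, 749 and 308 CPM. The part of these other transcripts in the Vcam1 values was not tested. Border macrophage-like cells held 30.8% and 27.3% of all Vcam1 UMIs in the isotype libraries and 16.0% and 17.01% in the blockade libraries. Endothelial-like cells held 39.3%, 13.5%, 37.3% and 29.3%. Microglia-like cells held 27.3%, 56.4%, 38.7% and 53.0%, the largest share in each stroke library.

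Outside these classes Vcam1 rested on few UMIs. Astrocyte-like cells, 5, 23, 32 and 42 in number, had 1, 12, 3 and 6 UMIs, and the 12 in stroke under isotype gave 106 CPM (55.0 to 186). Dendritic-like cells had 8, 2, 0 and 0 UMIs, and T cell-like cells 3, 4, 4 and 2. Pericyte-like cells had 0, 1, 62 and 0 UMIs, and 79.0% of the 62 were in 1 cell. A count of 0 in these small classes sets a wide limit, for example 11.2 CPM in dendritic-like cells under anti-VCAM1.

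Fn1, the fibronectin gene, was an endothelial transcript in these cells. Endothelial-like cells held 98.1%, 91.1%, 96.0% and 96.4% of all Fn1 UMIs in the 4 libraries. Its level there was 694 CPM (662 to 727) in sham, 581 (554 to 609) in stroke under isotype, 522 (509 to 535) under anti-VCAM1 and 516 (505 to 527) under anti-VLA4. Sham was the highest and the blockade libraries the lowest, with overlapping intervals between those 2 libraries. The log2 ratio was -0.26 (-0.35 to -0.16), -0.15 (-0.23 to -0.08) and -0.17 (-0.25 to -0.10), all well under the 2-fold mark. Unlike Vcam1, Fn1 was spread over the class, with a UMI in 45.3%, 41.3%, 38.5% and 37.0% of cells after thinning and in 79.6%, 75.0%, 76.2% and 77.5% before it. Microglia-like cells, which had little of it, had a thinned share of 0.205% at a median of 5551 UMIs. T cell-like cells, the class planned as one that lacks Fn1, had 0, 2, 1 and 3 UMIs. Every endothelial cluster had Fn1, from 431 CPM in cluster 19 to 760 CPM in cluster 14.

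In border macrophage-like cells Fn1 was at 18.1 CPM (10.4 to 29.4) in sham and at 71.7 (58.0 to 87.7), 109 (80.1 to 145) and 98.5 (74.0 to 129) in the stroke libraries. All 3 stroke libraries lay above sham, by a log2 ratio of 1.93 (1.21 to 2.85) for the isotype pair, and their own intervals overlapped. The summed endothelial markers of this class, given above for Vcam1, were also higher in the blockade libraries (264 and 1700 CPM). They were 40.7 CPM in sham and 30.2 in stroke under isotype. The summed monocyte markers were 687 CPM in sham and 923, 749 and 308 CPM in the stroke libraries. The part of either list in the Fn1 values was not tested. The values come from 16, 95, 47 and 54 UMIs, in 15, 7 and 10 cells of the stroke libraries. When cells were classed one by one from their markers instead of by cluster, the stroke ratio turned to -2.30. Pericyte-like cells had Fn1 at 169, 384 and 299 CPM in the stroke libraries and no UMI in the 10 cells of sham, which allows up to 93.3 CPM. The plot of ratios between libraries sets these differences beside those of the other members.

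**Figure D3:**
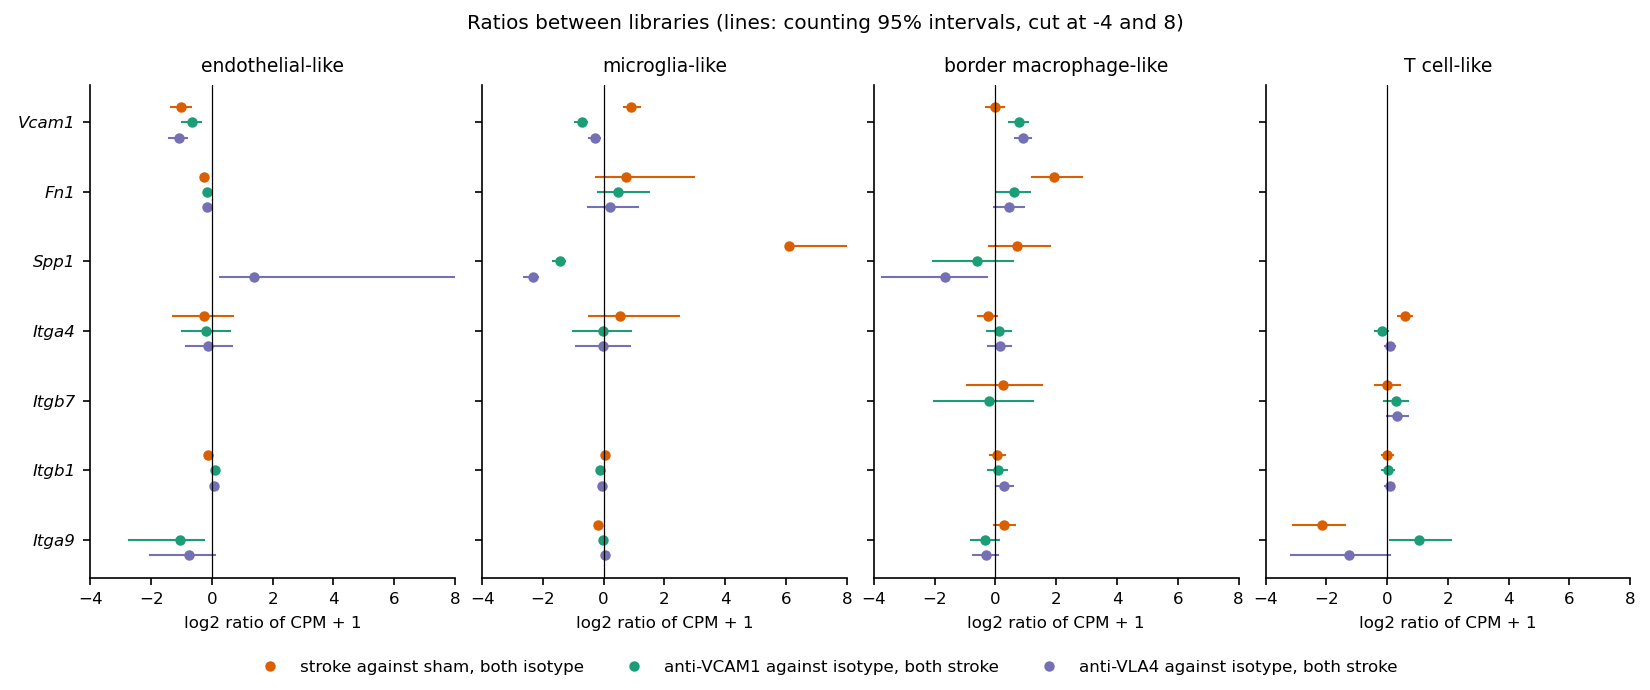
log2 ratio of CPM + 1 for each member in the 4 classes with at least 50 cells in every library, for stroke over sham and for each antibody over isotype; lines are 95% counting intervals, cut at -4 and 8. Vcam1 points to the left in endothelial-like cells in all 3 comparisons (-1.001, -0.66 and -1.08), while Itgb1 stays near 0 in all classes. Ratios with fewer than 20 UMIs over the pair are not drawn.

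Spp1, the osteopontin gene, was found in very few cells. Microglia-like cells had 1 Spp1 UMI in sham, 748 in stroke under isotype, 292 under anti-VCAM1 and 204 under anti-VLA4, or 0.195, 80.4, 29.0 and 15.2 CPM. These came from 1 of 692, 14 of 1478, 23 of 1815 and 18 of 2461 cells. The ratio of stroke to sham was 412 (counting interval 73.8 to 16301.8), and the log2 ratios of the antibodies over isotype were -1.44 (-1.67 to -1.28) and -2.33 (-2.63 to -2.18).

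A single cell set the stroke isotype value. It held 679 of the 748 UMIs, 4.69% of its own 14464 UMIs. It lay in cluster 12 and had 164 UMIs of Apoe, 41 of Cst7 and 26 of Lgals3, 4 of the homeostatic gene P2ry12, and 0 of the border macrophage genes Mrc1 and Pf4. In the blockade libraries the highest cell had 67 and 109 UMIs. Leaving out the top cell per library, the level was 0, 7.43 (5.78 to 9.40), 22.4 (19.5 to 25.5) and 7.10 (5.74 to 8.68) CPM. The anti-VCAM1 ratio then turned to 1.47 and the anti-VLA4 ratio was -0.058 (-0.53 to 0.40), while the stroke ratio kept its direction at 3.08. The lower microglial Spp1 of the antibody libraries was therefore not kept once the top cells were left out. Anti-VCAM1 was then above stroke under isotype, with intervals that did not overlap. Anti-VLA4 was then within counting error of it.

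By numbers of cells, 0.947% of microglia-like cells had a Spp1 UMI in stroke under isotype (0.519 to 1.58%), 1.27% under anti-VCAM1 (0.805 to 1.90%) and 0.731% under anti-VLA4 (0.434 to 1.15%), against 0.145% in sham (0.00366 to 0.802%). The 3 stroke shares overlapped each other, and after thinning they were 0.555%, 0.670% and 0.248%, with 0 of 689 in sham, which allows up to 0.435%. Cells with at least 5 Spp1 UMIs numbered 0, 4, 11 and 3. Cluster 12, which had the highest sum of disease-associated microglial genes (3023 CPM over 10 genes), held 98.8% of microglial Spp1 UMIs, in 0 of 7, 11 of 83, 19 of 106 and 16 of 159 of its cells. This cluster was 1.01%, 5.62%, 5.84% and 6.46% of microglia-like cells, so the stroke libraries differed from sham in its share as well.

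**Figure D4:**
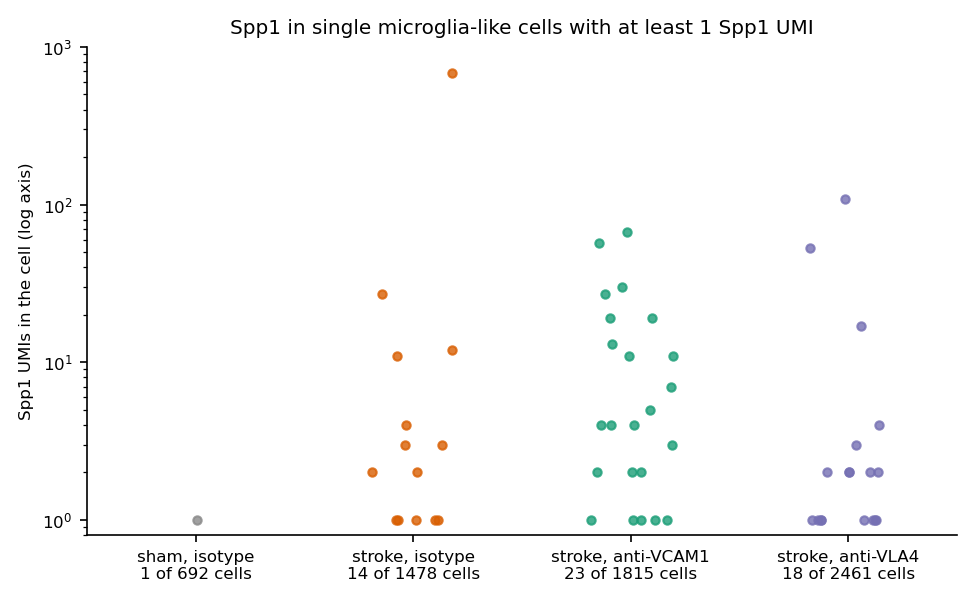
Spp1 UMIs in each microglia-like cell that had at least 1, by library, on a log axis; every point is a cell. The stroke isotype library has 1 cell at 679 UMIs and 13 further cells at 27 or fewer, the anti-VCAM1 library reaches 67, the anti-VLA4 library 109, and sham has 1 cell with 1 UMI.

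Pericyte-like cells, from 10, 14, 56 and 92 cells, had Spp1 at 93.3, 169, 108 and 72.8 CPM, and all 4 intervals overlapped. Border macrophage-like cells had 13, 33, 7 and 4 UMIs, a log2 ratio of 0.72 (-0.20 to 1.81) for stroke and -1.64 (-3.73 to -0.28) under anti-VLA4. Endothelial-like cells had 0, 0, 11 and 28 UMIs. The anti-VLA4 level was 1.58-fold that of a floor of 3 counts in the stroke isotype library. The lower counting limit of the ratio was 1.20-fold. Of these UMIs, 9 of the 11 and 21 of the 28 were in cluster 13, which had 4 pericyte markers and held 1, 8, 119 and 194 cells. Without that cluster the log2 ratio under anti-VLA4 was 0.53 and its interval spanned 0. All 7 pericyte markers had UMIs in the endothelial-like class of each library, with sums of 129, 178, 439 and 502 CPM. Microglia-like cells held 93.0%, 81.3% and 71.8% of the Spp1 UMIs of the stroke libraries and 3.03% of the 33 in sham.

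Itga4, the alpha4 chain and the antibody target on leukocytes, was highest in neutrophil-like and T cell-like cells when libraries were pooled (584 and 531 CPM), while in sham 15 UMIs in 10 pericyte-like cells gave the highest level. In T cell-like cells it was at 375 CPM (326 to 429) in sham, 567 (526 to 610) in stroke under isotype, 500 (443 to 562) under anti-VCAM1 and 600 (550 to 654) under anti-VLA4. All 3 stroke libraries lay above sham, and the stroke isotype interval overlapped both blockade intervals. The log2 ratio was 0.59 (0.37 to 0.82) for stroke, -0.18 (-0.39 to 0.02) under anti-VCAM1 and 0.08 (-0.08 to 0.25) under anti-VLA4. The stroke ratio was 0.21 (-0.03 to 0.45) when cells were classed one by one from their markers. Thinned to 1000 UMIs, 26.4%, 43.6%, 40.2% and 38.8% of T cell-like cells had an Itga4 UMI, against 69.9%, 75.9%, 66.7% and 67.3% unthinned at median depths of 5726, 4532, 4720 and 3859 UMIs. Endothelial-like cells, the class planned as one that lacks Itga4, had 38 of 6738 thinned cells with a UMI. Microglia-like cells, which had little of it, had 6 of 6345 (0.0946%).

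The T cell-like class was not uniform. Cells with a UMI of the natural killer genes Ncr1 or Klrb1c were 15 of 73, 19 of 249, 12 of 111 and 12 of 202. Without them Itga4 was at 432, 609, 541 and 633 CPM, and the stroke ratio was 0.49 (0.27 to 0.73). In cells with CD8 transcripts and no Cd4, the level was 555 CPM (474 to 646), 639 (580 to 702), 642 (561 to 731) and 629 (567 to 697), and all 4 intervals overlapped. In cells with neither it was 185, 359, 233 and 508 CPM, and in the 8, 39, 6 and 10 cells with Cd4 and no CD8 transcripts it was 163, 777, 325 and 504 CPM. In the class as a whole the summed microglia markers were 2226, 702, 1442 and 311 CPM, highest in sham, and their part in the Itga4 difference was not tested.

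Other leukocyte classes also held Itga4. Neutrophil-like cells had 443, 706, 696 and 267 CPM, from 18, 21, 24 and 7 cells, and dendritic-like cells 225, 234, 195 and 189 CPM. The neutrophil-like class was named on 5 of 7 markers (S100a8, S100a9, Retnlg, Csf3r and Cxcr2), while Mmp8 and Ly6g did not pass. It also passed 2 monocyte markers, and no class was named for monocytes. B cell-like cells had 218, 211, 117 and 251 CPM, and border macrophage-like cells 180, 151, 165 and 166 CPM, with overlapping intervals for both classes in each comparison. Pericyte-like cells, which are not leukocytes, had 466, 143, 98.3 and 130 CPM, the first from 15 UMIs in 10 cells. Endothelial-like cells had 5.54 to 7.94 CPM and microglia-like cells 1.17 to 2.15 CPM. T cell-like cells held 36.5%, 51.2%, 43.5% and 55.1% of each library's Itga4 UMIs.

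Itgb7, the beta7 chain, was found mainly in leukocyte classes. T cell-like cells had 123 CPM (95.6 to 155) in sham, 123 (105 to 144) in stroke under isotype, 152 (121 to 188) under anti-VCAM1 and 156 (130 to 184) under anti-VLA4. All intervals overlapped, and the log2 ratios were 0.01, 0.30 (-0.10 to 0.69) and 0.33 (-0.01 to 0.68). Dendritic-like cells had 91.4, 93.6, 146 and 110 CPM and B cell-like cells 38.4, 58.3, 62.0 and 80.6 CPM. Neutrophil-like cells had 8, 10, 14 and 0 Itgb7 UMIs, or 69.4, 72.1 and 105 CPM in the first 3 libraries, where the intervals overlapped those of B cell-like cells. Border macrophage-like cells had 10, 18, 5 and 1 UMIs. Endothelial-like cells had 0, 1, 1 and 5 Itgb7 UMIs and microglia-like cells 0, 6, 1 and 9. Madcam1, the gut ligand of the alpha4 and beta7 pair, had 0 UMIs in endothelial-like cells, which allows up to 0.0859 CPM. It is named here after its value was seen.

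Itgb1, the beta1 chain, was the broadest member. It was at 476, 438, 466 and 457 CPM in endothelial-like cells, at 248, 253, 234 and 244 CPM in microglia-like cells, at 577, 581, 591 and 613 CPM in T cell-like cells and at 233, 244, 257 and 299 CPM in border macrophage-like cells. In these 4 classes every log2 ratio lay between -0.12 and 0.29. Those whose interval left out 0 were -0.12 (-0.23 to -0.01) for stroke and 0.089 (0.0018 to 0.18) under anti-VCAM1 in endothelial-like cells, -0.11 (-0.19 to -0.03) under anti-VCAM1 in microglia-like cells and 0.29 (0.01 to 0.57) under anti-VLA4 in border macrophage-like cells. The stroke value in endothelial-like cells turned to 0.012 when cells were weighed equally. Pericyte-like cells had 466, 792, 793 and 698 CPM.

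Itga9, the alpha9 chain, was found mainly in microglia-like cells, which held 88.2%, 88.9%, 96.3% and 96.6% of its UMIs. The level there was 298 CPM (283 to 313) in sham and 259 (249 to 270), 257 (247 to 267) and 267 (259 to 276) in the stroke libraries. Sham was the highest and the 3 stroke intervals overlapped, with log2 ratios of -0.20 (-0.29 to -0.11), -0.01 and 0.04. Cells with a UMI were 26.6%, 24.5%, 22.2% and 22.7% after thinning and 72.5%, 67.6%, 61.2% and 60.5% before it, at median depths of 7341.5, 6095, 5309 and 5192 UMIs. Endothelial-like cells, which had little of it, had 14 of 6738 thinned cells with a UMI. Itga9 was uneven among microglia: over all libraries it was at 516 CPM in cluster 7 and 411 in cluster 9, and at 77.4 in cluster 12, where Spp1 was found. In cluster 12 it was at 99.9, 74.7, 76.0 and 78.5 CPM in the 4 libraries, with overlapping intervals. Clusters 7 and 9 also had the shallowest cells among the larger microglial clusters, with medians of 2206.5 and 2854 UMIs, and Malat1, a nuclear RNA, at 54899 and 57610 CPM there against 22311 in cluster 12. The part of nuclear RNA in the Itga9 values was not tested.

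In border macrophage-like cells Itga9 was at 123, 152, 121 and 122 CPM with overlapping intervals. In T cell-like cells it had 40, 19, 18 and 5 UMIs, and the sham UMIs were in 6 cells. The stroke ratio there was -2.15 (-3.09 to -1.40), or -1.11 without the barcodes shared by the sham and stroke isotype libraries, and it turned to 1.90 when cells were classed one by one. The summed microglia markers of the class, given above, were highest in sham and lowest under anti-VLA4, and their part was not tested.

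Which cells could use a ligand other than VCAM1 was described by the cells with transcripts of both chains of a receptor. After thinning to 1000 UMIs, Itga4 and Itgb1 were found together in 108 of 618 T cell-like cells (17.5%), 13 of 65 neutrophil-like cells (20.0%), 12 of 171 pericyte-like cells (7.02%) and 22 of 455 border macrophage-like cells (4.84%). In endothelial-like cells the pair was found in 18 of 6738 (0.267%), and in microglia-like cells in 1 of 6345. Without thinning the shares were 57.3% in T cell-like, 57.1% in neutrophil-like, 41.9% in pericyte-like, 37.6% in border macrophage-like, 2.10% in endothelial-like and 0.636% in microglia-like cells. By library the thinned share in T cell-like cells was 9.72% (4.00 to 19.0%), 18.5% (13.8 to 24.0%), 17.8% (11.0 to 26.3%) and 18.9% (13.7 to 25.1%), all overlapping. At 2000 UMIs it was 38.0%, 30.3%, 24.2% and 33.5%, with sham then the highest, so no order of the libraries is read from it.

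Itga4 and Itgb7 were found together in 27 of 618 T cell-like cells (4.37%) after thinning, from 3.57% to 5.61% by library. No endothelial-like cell of 6738 had both, which allows up to 0.0445%, and no microglia-like cell of 6345, which allows up to 0.0473%. At that depth it was 2 of 138 dendritic-like cells (1.45%) and 3 of 168 B cell-like cells (1.79%). Without thinning the share was 25.5% of T cell-like, 42.7% of dendritic-like and 18.3% of B cell-like cells, at median depths of 4530, 11184.5 and 4589 UMIs, so the order of the classes depends on depth. Itga9 and Itgb1, the pair that binds osteopontin as well as VCAM1, were found together in 313 of 6345 microglia-like cells (4.93%) after thinning. By library this was 3.48%, 5.20%, 4.69% and 5.36%. At this depth Itga9 was found in 1484 and Itgb1 in 1275 of the 6345 cells. Without thinning, Itga9 was in 1490 and Itgb1 in 1542 of 2461 microglia-like cells under anti-VLA4, so the low thinned share also reflects depth. After thinning, 2 of 618 T cell-like and 7 of 6738 endothelial-like cells had Itga9 with Itgb1. Itga4 with Itgb1 was thus found mainly in neutrophil-like (with the monocyte markers given above), T cell-like, pericyte-like and border macrophage-like cells. Other leukocyte classes had less: 4 of 138 dendritic-like (2.90%), 3 of 168 B cell-like (1.79%) and 0 of 33 plasma cell-like cells after thinning. Itga4 with Itgb7 was in 0 of 171 thinned pericyte-like cells, which allows up to 1.75%. Itga9 with Itgb1 was found in microglia-like cells and, at 3.52%, border macrophage-like cells. A transcript of each chain in a cell does not show the assembled receptor.

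**Figure D5:**
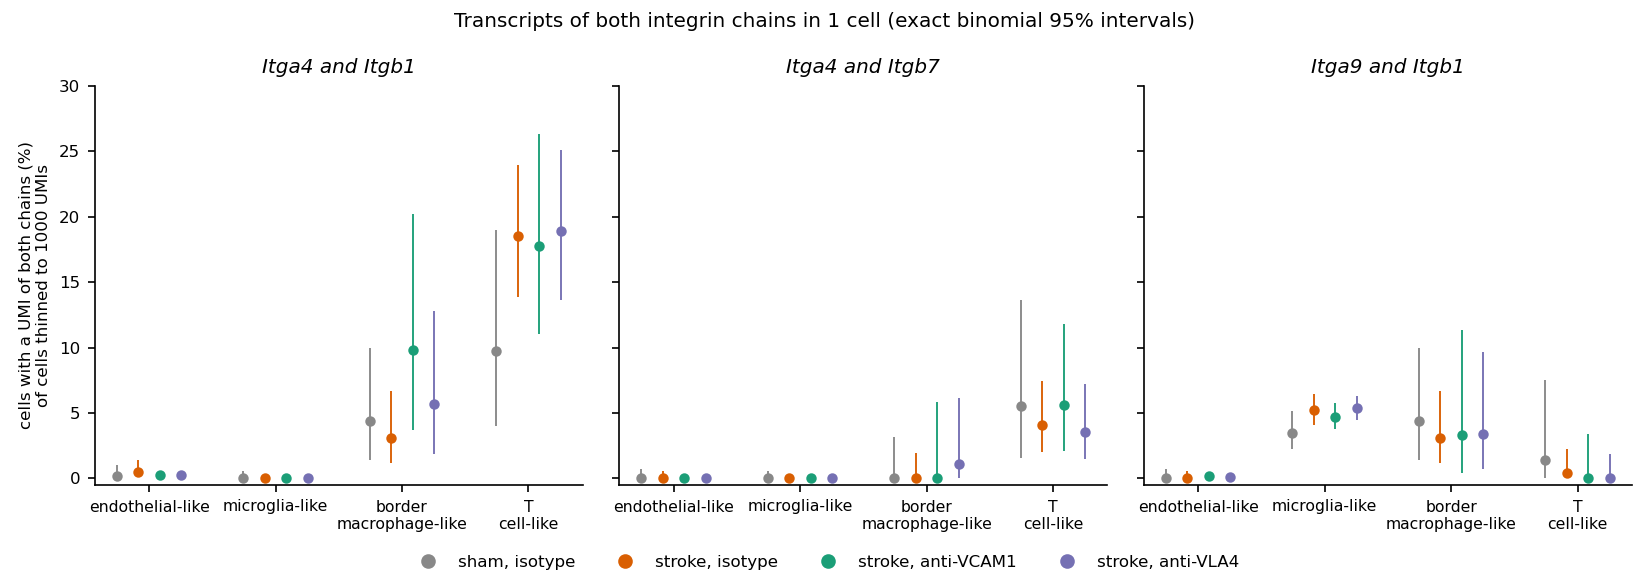
Percent of cells, thinned to 1000 UMIs, with a UMI of both chains of a receptor, by class and library; lines are exact Clopper-Pearson 95% intervals. Itga4 with Itgb1 reaches 9.72 to 18.9% in T cell-like cells and stays at or under 0.484% in endothelial-like and microglia-like cells, while Itga9 with Itgb1 lies at 3.48 to 5.36% in microglia-like cells.

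Counting members past 2-fold (log2 ratio of at least 1 in size, among genes with at least 50 UMIs over the pair) sets these differences against all genes. In endothelial-like cells 1 of 3 members with enough UMIs passed for stroke (Vcam1), against 0.975% of all genes, 0 of 4 under anti-VCAM1 (1.41% of all genes) and 1 of 4 under anti-VLA4, again Vcam1 (1.91%). In microglia-like cells Spp1 passed in each comparison, of 4, 5 and 5 members, against 0.731%, 0.457% and 0.623% of all genes, with the dependence on 1 cell given above. In border macrophage-like cells 1 of 5 passed for stroke (Fn1), against 2.02% of all genes, and 0 of 5 for both antibodies (2.9% and 4.96%). In T cell-like cells 1 of 4 passed for stroke (Itga9), against 8.39% of all genes, and 0 of 3 for both antibodies (4.02% and 3.75%). The other passes also depended on alternatives given above and below. Vcam1 fell short of 2-fold for stroke without cluster 13 and for anti-VLA4 without the top cells. It stayed past 2-fold for stroke without the top cells and for anti-VLA4 without cluster 13. The Fn1 and Itga9 ratios changed sign when cells were classed one by one from their markers. With so few members per class these counts are a description.

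A list of 47 genes of the same pathway was read in the same way. It holds other integrin chains and receptors of fibronectin or osteopontin, beta2 integrins, other ligands, activation and signalling genes and sheddases. In microglia-like cells none of 26, 28 and 27 list genes with enough UMIs passed 2-fold in the 3 comparisons, and the list medians were -0.10, 0.00 and 0.01 beside -0.04, 0.03 and 0.06 for all genes. Itgb5, which pairs with alphav, was at 1023, 1020, 1033 and 1081 CPM there, Itga6, a laminin receptor chain, at 246, 250, 246 and 267 CPM, and Itgam, the CR3 alpha chain, at 506, 456, 448 and 458 CPM. The alphav chain Itgav, a partner for osteopontin and fibronectin outside VLA4 and named after its values were seen, was at 256, 270, 243 and 250 CPM.

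In endothelial-like cells 1 of 21 list genes was higher past 2-fold for stroke (4.76% of the list, 0.975% of all genes), Itgb5 (21.9 against 9.92 CPM, log2 ratio 1.07, 0.45 to 1.87). For anti-VCAM1, 4 of 24 (16.7%, against 1.41% of all genes) were lower: Itga3 (-1.004), Itgam (-1.90), Fermt3, the leukocyte kindlin (-1.09), and Apbb1ip, the RIAM adaptor of Rap1 (-1.501). For anti-VLA4, 2 of 24 (8.33%, against 1.91% of all genes) were lower, Itgam (-1.68) and Apbb1ip (-1.55). The summed microglia markers in this class were 66.3, 245, 111 and 101 CPM, highest in stroke under isotype, with all 8 markers found in each library. Their part in these 3 leukocyte genes, and in Itgb5, whose higher microglial level is given above, was not tested. Medians of the list were -0.07, -0.17 and -0.24 beside -0.04, -0.06 and -0.07 for all genes. The laminin receptor chain Itga6 was at 676, 645, 502 and 501 CPM and the collagen receptor chain Itga1 at 610, 556, 507 and 475 CPM, both lowest in the blockade libraries. Jam2, an endothelial junction protein that alpha4 integrins can bind, was at 383, 360, 356 and 344 CPM.

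In border macrophage-like cells Thbs1, a matricellular ligand, was at 20.4, 43.8, 13.9 and 14.6 CPM, with log2 ratios of 1.07 (0.32 to 1.95), -1.59 (-3.16 to -0.45) and -1.52 (-2.86 to -0.51). The stroke isotype library was the highest of the 4. Itgal, the LFA-1 alpha chain, was lower for stroke (12.1 against 43.0 CPM, -1.75), and Cd44, an osteopontin and hyaluronan receptor, was lower under anti-VLA4 (31.0 against 86.8 CPM, -1.46). No other list gene of 25, 21 and 21 passed 2-fold there, which makes 8%, 4.76% and 9.52% of the list against 2.02%, 2.9% and 4.96% of all genes. In T cell-like cells 3 of 19 were lower for stroke, Itga1 (-1.004), Itgb5 (-1.96) and Itgam (-1.63). For anti-VCAM1 Itgb5 was higher (1.35) and Pxn, the focal adhesion adaptor paxillin, lower (-1.07), of 19, and under anti-VLA4 Itgam was lower (-1.38), of 21. These are 15.8%, 10.5% and 4.76% of the list against 8.39%, 4.02% and 3.75% of all genes. Itgb5 followed the order of the summed microglia markers of the class in the libraries, at 203, 51.4, 132 and 25.4 CPM, and the part of those transcripts was not tested. Itgal, the most counted beta2 partner in T cell-like cells, was at 156, 144, 137 and 157 CPM.

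Genes with the most similar pattern were ranked by Pearson r of log2(CPM + 1) over 16 points, 4 classes in 4 libraries, among 12468 genes. The points share libraries and class depth, so the values are descriptions. They were Blvrb (0.96), Apoe (0.95) and Samd4 (0.94) for Vcam1, Nes, 2700054A10Rik and Cpne8 (0.98 each) for Fn1, and Slc25a43 (0.85), Hcar2 (0.83) and Gas2l3 (0.81) for Spp1. For the chains they were Mdfic (0.99), Emb (0.99) and Lgals1 (0.98) for Itga4, Cyfip2, Cd69 and Rasgrp1 (0.99 each) for Itgb7, Ppp3cc, Ehd3 and Gimap8 (0.99 each) for Itgb1, and Blnk and Zfp710 (1.00 each) for Itga9. Spp1 had the lowest best value of the 7.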

How the data were processed

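Groups were taken from the sample titles, 1 library each. The authors deposited UMI counts (genes by barcodes), which come from Cell Ranger 7.0.1 as stated per the file headers. The submitters' processing notes also name Cell Ranger 6.0.0, Seurat 4.3.0.1 and the builds mm10 and GRCh38, without saying which was used for what. The genes described, gene lists and most alternatives were chosen with earlier results of these data known.

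Software was scanpy 1.11.5, matplotlib 3.10.9, leidenalg 0.10.2, pandas 2.3.3, numpy 2.4.6, scikit-learn 1.9.0, scipy 1.17.1 and Python 3.11.15. Cells had at least 500 UMIs, 200 genes and at most 10% mitochondrial UMIs, which left 1514, 2832, 4657 and 6209 of 1541, 2891, 4751 and 6361 barcodes after Scrublet had marked 11, 24, 63 and 124 doublets at an expected rate of 0.05. All libraries were clustered together (2000 variable genes, 30 components, 15 neighbours, Leiden resolution 1) without integration, and without the 7 members, 47 pathway genes and mitochondrial, ribosomal and haemoglobin genes. The 24 clusters were named after the marker list with the highest relative score, given 3 or more of its markers in 25% or more of the cluster with a log2 fold of 1 or more over other classes, and no stronger second list. Class sums of UMIs in each library were expressed as CPM with exact Poisson intervals. Log2 ratios used a pseudocount of 1 CPM, so they understate changes of low genes, with a conditional binomial interval computed without it. Shares have Clopper-Pearson intervals, and a count of 0 allows up to 3 counts. With 1 library per group no test, p-value or replicate check was possible. Total UMIs of kept cells were 9857631, 16805668, 24387573 and 33389282. Ratios are given where the pair of libraries had at least 20 UMIs in a class with at least 50 cells in each library. The ratio script was tested on simulated data.

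Named were all members, list genes past 2-fold, up to 2 list genes per role with the most UMIs, and 3 genes per member of the most similar pattern, among genes with at least 200 UMIs. One gene that this rule names for Itga9 is not reported here. Gene positions came from GENCODE M21, which matched 32158 of 32285 gene IDs (99.6%), and RefSeq held a promoter for 5 of 7 members. Alternatives changed the cell filter, doublets, resolution, naming of cells, depth, the highest cell, weight of cells, pseudocount and largest genes. Those on shared barcodes, a cluster with pericyte markers and natural killer genes were added after seeing the data.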

Additional observations from a re-analysis of the deposited data

Results flagged for a closer look

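Some members differed in opposite directions between classes under the same comparison, with counting intervals that left out 0 in each class. These differences between classes were not tested, since each group is 1 library.

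Vcam1 was lower in endothelial-like cells (-1.001) and higher in microglia-like cells (0.90) for stroke. With anti-VCAM1 it was lower in endothelial-like (-0.66) and microglia-like cells (-0.72) and higher in border macrophage-like cells (0.77). With anti-VLA4 it was likewise lower in endothelial-like (-1.08) and microglia-like cells (-0.29) and higher in border macrophage-like cells (0.91). Fn1 was lower in endothelial-like cells (-0.26) and higher in border macrophage-like cells (1.93) for stroke, and the same held for anti-VCAM1 (-0.15 and 0.60). The endothelial markers in border macrophage-like cells summed to 40.7 CPM in sham, 30.2 in stroke under isotype and 264 under anti-VCAM1. The monocyte markers there summed to 687, 923 and 749 CPM in the same order. The part of either list was not tested. Itgb1 with anti-VCAM1 was at 0.089 in endothelial-like and -0.11 in microglia-like cells. Itga9 with anti-VCAM1 was at -1.05 in endothelial-like cells, from 16 against 11 UMIs, and at 1.05 in T cell-like cells, from 18 against 19 UMIs. The summed microglia markers went from 245 CPM in stroke under isotype to 111 under anti-VCAM1 in endothelial-like cells. In T cell-like cells they went from 702 to 1442 CPM, and their part was not tested. Each of these Itga9 ratios changed sign under an alternative given below. Spp1 with anti-VLA4 was at 1.39 in endothelial-like cells, where the control had 0 UMIs so that the value depends on the pseudocount and is 0.53 without cluster 13, at -2.33 in microglia-like cells and at -1.64 in border macrophage-like cells. The pericyte markers of the endothelial-like class summed to 178 CPM in stroke under isotype and 502 CPM under anti-VLA4, and cluster 13, which had pericyte markers, held 8 and 194 cells.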

How the results depend on the processing

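Of 742 alternative values of 65 log2 ratios, 8 had the other sign from a reported ratio whose counting interval left out 0. Of the rest, 670 lay within the interval of the reported ratio and 64 outside it, some with the other sign where that interval spanned 0. The cause was not tested. A stricter cell filter and class totals without the 50 largest genes moved none of the 65. Without the highest cell of each library, endothelial Vcam1 was at -1.42, -0.25 and -0.66 for stroke, anti-VCAM1 and anti-VLA4, and microglial Spp1 at 3.08, 1.47 and -0.058. With equal weight per cell, Vcam1 was at -1.12 for anti-VCAM1, endothelial Itgb1 at 0.012 for stroke, endothelial Fn1 at -0.28 for anti-VLA4, and microglial Spp1 at 5.16 for stroke and -1.13 for anti-VCAM1. After thinning to 1000 UMIs, Itga4 in T cell-like cells was at -0.10 for anti-VLA4, microglial Itga9 at -0.11 for anti-VCAM1, and microglial Spp1 at 5.18, -0.95 and -1.74. Microglial Spp1 was at 3.15, -1.21 and -1.84 with a pseudocount of 10 CPM, and at 6.08 for stroke without shared barcodes. With cells classed one by one from their markers, Spp1 was at 5.08 for stroke and Itga4 in T cell-like cells at 0.21. At resolution 0.5 endothelial-like cells of the stroke isotype library held 10.8% of Vcam1 and 87.1% of Fn1 UMIs. Direction also changed for Itgb1 with anti-VCAM1 in microglia-like cells (0.075), Itga9 with anti-VCAM1 in endothelial-like cells (1.61) and Spp1 with anti-VLA4 in border macrophage-like cells (0.11) after thinning, and with that classing for Itga9 in T cell-like cells (1.90 for stroke, -0.13 for anti-VCAM1) and Fn1 for stroke in border macrophage-like cells (-2.30). List genes past the fold over 4 classes numbered 6, 7 and 5 for stroke, anti-VCAM1 and anti-VLA4. They were 20, 14 and 21 at a log2 ratio of 0.5, 1, 0 and 0 with at least 200 UMIs, and 29, 24 and 25 with at least 1 UMI. No paired analysis was possible because each group is 1 library. The stroke ratio of microglial Spp1 (6.09) lies below its own interval, which is computed without the pseudocount.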
